A study of Homo sapiens with 2 samples.

Results

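The NIBAN genes (NIBAN1, NIBAN2 and NIBAN3) and the WDFY genes (WDFY1, WDFY2, WDFY3 and WDFY4) were described in RNA sequencing data of REH and 697, lines of acute lymphoblastic leukemia of B-cell precursors (BCP-ALL). These 7 genes are named members of both families, taken from the 57773 genes counted. They were selected on the read counts of these same libraries, in which NIBAN1 and WDFY3 stood at the top of the ratio of REH over 697, so every ratio given here is a description and no test was made. REH is an established line with the t(12;21) fusion ETV6/RUNX1 and without a remaining intact ETV6 allele. The 697 line is negative for that fusion. Both lines were grown in RPMI medium with serum, and the labels name no agent given to the cells. There was 1 library per line, each from a single established line, and hence no replicate error.

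Niban proteins are cytoplasmic proteins with a pleckstrin homology domain that act in stress and growth factor signalling, and NIBAN3 is known as a gene of the B lineage. WDFY proteins carry WD repeats, and all but WDFY4 are known for a FYVE domain that binds the endosomal lipid phosphatidylinositol 3-phosphate. WDFY1 and WDFY2 are small endosomal adaptors. WDFY3, also called ALFY, and WDFY4 are very large BEACH domain proteins, the former known for bringing protein aggregates into autophagosomes and the latter for cross-presentation of antigen by dendritic cells.

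The REH library held 45188375 reads in genes and the 697 library 41097497. In these files 3 reads, the smallest number taken as detected, corresponded to 0.0597 CPM in REH and 0.0812 CPM in 697, CPM being the read count relative to the library total after scaling by the trimmed mean of M-values (TMM). Markers of B-cell precursors were present in both lines, with 39793 reads of PAX5 in REH and 45212 in 697. Of 9 such markers, 1 passed the 4-fold threshold used here toward REH and 1 toward 697, against 12.5% and 8.15% of all tested genes. VPREB1, a surrogate light chain gene, was nearly absent from REH (3 reads, against 10039 in 697). IGLL1, another surrogate light chain gene, had 14635 reads in REH and 18608 in 697. Intervals are exact 95% intervals of counting error only. In RNA from a whole culture, fewer expressing cells and less RNA per cell cannot be told apart.

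All 7 members reached 10 reads in REH or 697. A log2 ratio of REH over 697 of at least 2 in size, a 4-fold difference, was found for 4 members in the direction of REH (NIBAN1, NIBAN3, WDFY3 and WDFY4) and for 0 members in the direction of 697, while NIBAN2, WDFY1 and WDFY2 stayed under it. Of the 19145 genes with as many reads, 12.5% passed this threshold toward REH and 8.15% toward 697. Because the members were chosen from these ratios, nothing follows from the difference between these shares. The median log2 ratio was 2.57 over the members and 0.05 over all genes tested, and the former was the same with genes at 0 reads set to their bound.

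**Figure D1:**
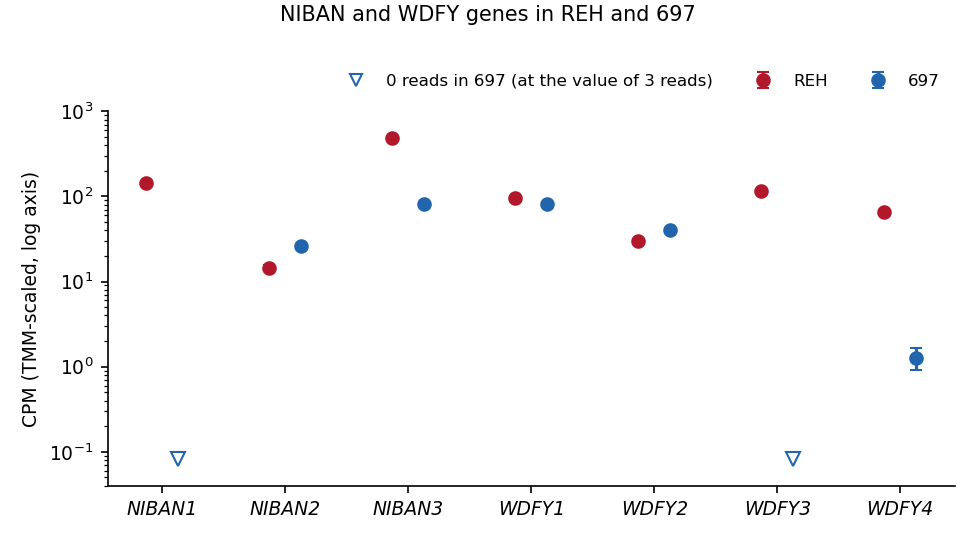
TMM-scaled CPM on a log axis of each member in REH (red) and 697 (blue), 1 library each, with exact 95% counting intervals, many of them smaller than the symbol. Open triangles mark members with 0 reads in 697, drawn at 0.0812 CPM, the value of 3 reads. NIBAN1, NIBAN3, WDFY3 and WDFY4 lay higher in REH, and the values of WDFY1, WDFY2 and NIBAN2 lay close together in the lines.

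NIBAN1 (ENSG00000135842) encodes a stress-induced protein that affects the phosphorylation of translation regulators and cell survival. The gene lies on the minus strand of chromosome 1, from 184790724 to 184974508 in GENCODE 44 (GRCh38). REH had 7189 reads of NIBAN1, or 143 CPM (interval 140 to 146). In 697 not a single read was counted on either strand, and the exact interval of its level reached up to 0.0998 CPM. Taken at the floor of 3 reads (0.0812 CPM), NIBAN1 was at least 1761-fold higher in REH (log2 ratio of at least 10.78), while the lower end of the exact interval of the ratio was 1432-fold (log2 ratio 10.48). With 0.5 reads added to each count the log2 ratio was 13.37, rank 1 of 19145 genes, a size that the added reads set. In REH the reads divided evenly over the strands, with 3624 on the strand of the gene and 3565 on the other, and no annotated gene shared its exons. The stretch before the annotated start of NIBAN1 is shown first because this gene had the largest ratio. It comprises 250 bases at chr1:184974509-184974758 on the minus strand (RefSeq, GRCh38.p14), written in the direction of the gene, with CpG dinucleotides in capitals.
NIBAN1: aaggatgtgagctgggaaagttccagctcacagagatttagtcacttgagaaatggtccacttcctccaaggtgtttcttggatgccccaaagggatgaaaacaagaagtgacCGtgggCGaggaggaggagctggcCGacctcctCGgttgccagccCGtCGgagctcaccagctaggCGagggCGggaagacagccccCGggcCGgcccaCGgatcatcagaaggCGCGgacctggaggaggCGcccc
These letters held 14 CpGs, against a median of 11 over 35116 promoters, at 61.2% GC. The core letters of ETS sites, GGAAGT, were found once on the opposite strand, at 191 bases before the start, and 19.5% of all promoters held them on either strand. The RUNX core TGTGGT, held by 11.0% of promoters, and TGATGCAA, a form of the amino acid response element held by 0.772%, were not among these letters.

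The genes on both sides of NIBAN1 were read in both lines. RNF2, a Polycomb ubiquitin ligase whose start lies 71.0 kb upstream, had 2555 reads in REH against 1694 in 697 (interval of the log2 ratio 0.06 to 0.24). EDEM3, which acts in the disposal of misfolded glycoproteins, had 3647 and 4629 reads (log2 ratio -0.79). Among the 3 nearest coding genes on each side, C1orf21 also differed beyond the threshold (1779 reads in REH against 1 in 697), with a log2 ratio of 9.77 and an interval of 7.87 to 15.66. Reads were thus absent in 697 for NIBAN1 but not for the genes tested directly before and after it.

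NIBAN2 (ENSG00000136830; chromosome 9, 127505339 to 127578989, minus strand), a substrate of growth factor kinases at the cell membrane, was the member with the lowest CPM in REH. It had 729 reads in REH (14.5 CPM, interval 13.5 to 15.6) and 964 in 697 (26.1 CPM, 24.5 to 27.8). Its level in 697 was 1.80-fold that in REH (log2 ratio -0.85, interval -0.99 to -0.71).

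NIBAN3 (ENSG00000167483), the B-lineage gene of the family, was the most abundant member in REH. The gene lies on the plus strand of chromosome 19, from 17523301 to 17553839. REH had 24669 reads (491 CPM, interval 485 to 497) and 697 had 3051 (82.6 CPM, 79.7 to 85.6). The level in REH was 5.94-fold that in 697 (interval 5.72 to 6.17, log2 ratio 2.57), and both lines expressed the gene well above the floor. The 250 bases before the first of its 3 listed starts are shown for comparison with NIBAN1, at chr19:17523051-17523300 on the plus strand (RefSeq, GRCh38.p14), with CpGs in capitals.
NIBAN3: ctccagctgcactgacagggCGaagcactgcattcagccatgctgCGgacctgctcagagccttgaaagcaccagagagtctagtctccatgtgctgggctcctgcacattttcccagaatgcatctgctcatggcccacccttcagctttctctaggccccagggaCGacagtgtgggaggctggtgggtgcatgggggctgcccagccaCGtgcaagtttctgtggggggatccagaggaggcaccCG
They held 5 CpGs, fewer than NIBAN1, at a similar GC share (60.8%). The 250 bases before the second and the third start held 10 CpGs each, so the low number belongs to the first start only. Neither the RUNX, the ETS nor the amino acid response letters occurred in the stretch shown or before the other starts of NIBAN3. The nearby genes PGLS (log2 ratio -0.65), an enzyme of the pentose phosphate pathway, and COLGALT1 (0.46), a collagen galactosyltransferase, stayed under the threshold. UNC13A, a synaptic vesicle priming factor 165 kb downstream, had 2630 reads in REH against 93 in 697, a log2 ratio of 4.37 (4.08 to 4.69).

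WDFY3 (ENSG00000163625) lies on the minus strand of chromosome 4, from 84668765 to 84966690. REH had 5890 reads, or 117 CPM (interval 114 to 120). As for NIBAN1, 697 had 0 reads. At the floor of 3 reads WDFY3 was at least 1443-fold higher in REH (log2 ratio of at least 10.49), and the lower end of the exact interval was 1173-fold (log2 ratio 10.20). With 0.5 reads added the log2 ratio was 13.08, rank 2 of 19145. Of the 13489 protein-coding genes tested, 410 had 0 reads in 697, 32 of them with 1000 or more REH reads. No protein-coding gene but NIBAN1 had as many REH reads as WDFY3 together with 0 reads in 697.

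**Figure D2:**
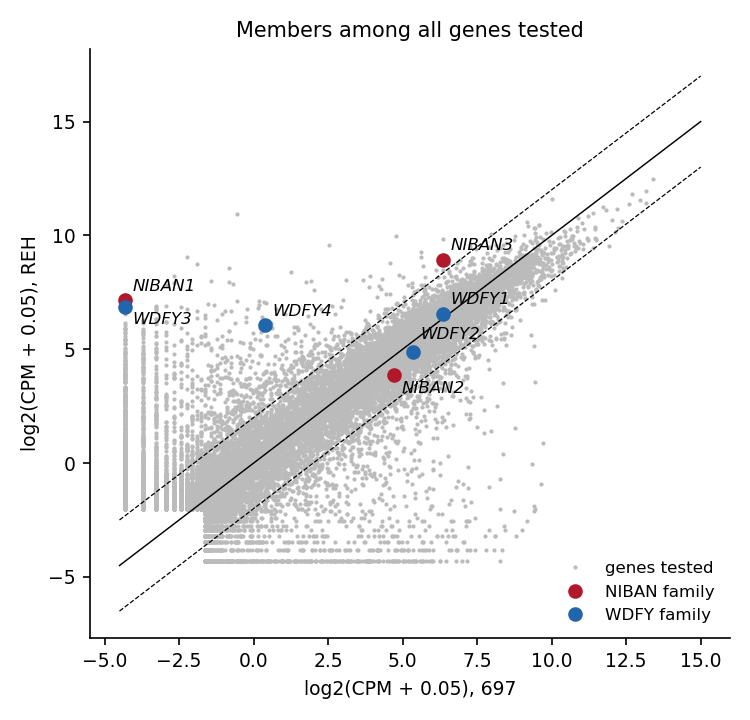
TMM-scaled expression of the 19145 genes tested (grey) in 697 (x axis) and REH (y axis), as log2 of CPM plus 0.05. NIBAN genes are red and WDFY genes blue, the solid line marks equal levels and the dashed lines a log2 ratio of 2 in either direction. NIBAN1 and WDFY3 sit at the upper end of the column of genes with 0 reads in 697, whereas NIBAN2, WDFY1 and WDFY2 lie between the dashed lines.

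In contrast to NIBAN1, WDFY3 lay in a stretch of genes that were all without reads in 697. The stretch was looked for after the value of WDFY3 was seen. Going outward from WDFY3 over the tested genes, 697 had 0 reads for 6 consecutive genes on chromosome 4, from CDS1 to PTPN13 (84583127 to 86815171, 2.23 Mb). PTPN13, a protein tyrosine phosphatase, had 2639 reads in REH. ARHGAP24, a GTPase-activating protein for RAC, had 166 reads in REH. The kinase gene MAPK10 had 56 REH reads and CDS1, an enzyme of phospholipid synthesis, had 44. The antisense lncRNA gene WDFY3-AS2 had 362. With genes of lower counts included, 15 counted genes lay in the stretch and none had a read in 697. In REH 9 of the 15 had reads, 9160 in all, and the others had none in either line.

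Outside this stretch 697 had reads again, but few in the tested genes that bound it. GPAT3, next to CDS1, had 18 reads in REH and 4 in 697, and RPL6P13, next to PTPN13, had 23 and 54. The ends of the stretch therefore rest on genes with low counts. Within 3 Mb of the WDFY3 start 32 further genes were tested, of which 1 (HPSE, 33 reads in REH) had 0 reads in 697, and their median log2 ratio was -0.21. Beyond PTPN13, AFF1, a subunit of the super elongation complex, had 8872 reads in REH and 9126 in 697. On the other side, SEC31A, a coat protein of transport vesicles, had 8698 and 7591 reads. Over the genome, 565 stretches of tested genes with 0 reads in 697 were found, of which 459 consisted of a single gene, as for NIBAN1, and 4 held 6 genes or more. The DNA copy number of this stretch was not measured in these data.

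**Figure D3:**
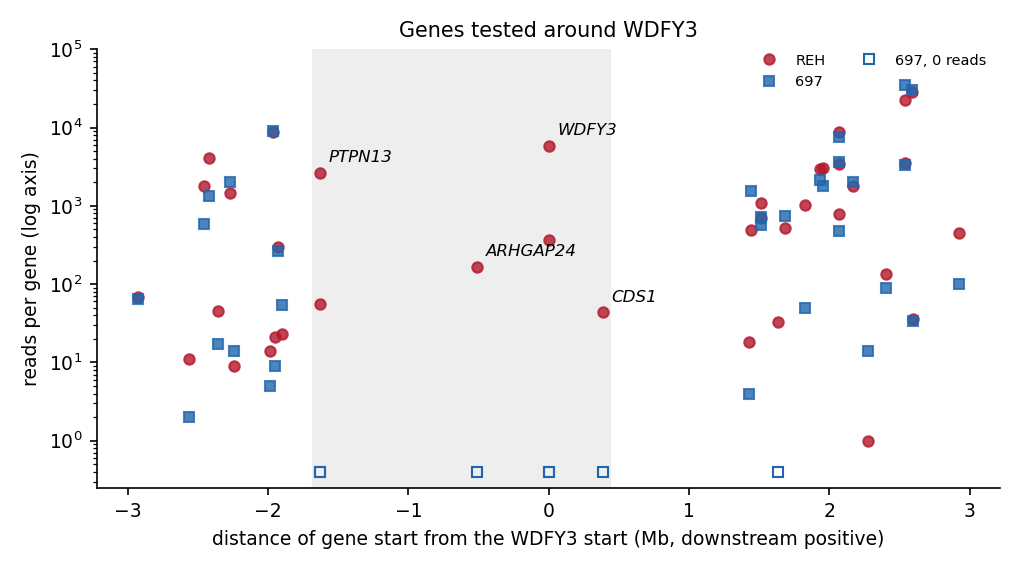
Reads per gene (log axis) in REH (red circles) and 697 (blue squares) for the 38 genes tested within 3 Mb of the WDFY3 start, placed by the distance between gene starts. Open squares mark 0 reads in 697, and the shading covers the 6 consecutive genes with 0 reads there, where REH had 44 to 5890 reads per gene.

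WDFY3 reads were also the ones with the largest share left out, among the members, for overlap with genes on the other strand. The strand columns of REH held 3053 and 3054 WDFY3 reads, and 217 of these (3.55%) were left out of the count of either strand as ambiguous. This number equals the 208 reads of WDFY3-AS1 and the 9 reads of WDFY3-AS2 that were left out in the same way. The libraries carried no strand information, so that a WDFY3 read and an antisense read in these overlaps cannot be told apart. WDFY3-AS2 itself had 362 reads in REH against 0 in 697. Its log2 ratio was 6.47 at the floor of 3 reads, with an exact interval from 6.17 upward. For NIBAN1, NIBAN2, NIBAN3, WDFY1 and WDFY2 no read was left out for overlap with a gene on the other strand. GENCODE 44 lists, for WDFY1 and WDFY2, overlapping coding genes whose IDs were not counted. Reads ambiguous with a gene on the same strand are in none of the columns, so their number is not known here.

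WDFY4 (ENSG00000128815; chromosome 10, 48684873 to 48982956, plus strand) had 3323 reads in REH (66.1 CPM, interval 63.9 to 68.4). In 697 there were 46 reads (1.25 CPM, 0.912 to 1.66), more than the floor but few. The level in REH was 52.5-fold that in 697 (interval 39.7 to 72.7, log2 ratio 5.72). In REH, 104 reads (3.03%) were left out as ambiguous with overlapping genes on the other strand. Among these, the antisense lncRNA gene ENSG00000233665 had 11 reads in REH and 6 in 697, and LRRC18, within WDFY4 on the other strand, had none. WDFY4 has 2 listed starts, and the first is shown, at chr10:48684623-48684872 on the plus strand (RefSeq, GRCh38.p14), with CpGs in capitals.
WDFY4: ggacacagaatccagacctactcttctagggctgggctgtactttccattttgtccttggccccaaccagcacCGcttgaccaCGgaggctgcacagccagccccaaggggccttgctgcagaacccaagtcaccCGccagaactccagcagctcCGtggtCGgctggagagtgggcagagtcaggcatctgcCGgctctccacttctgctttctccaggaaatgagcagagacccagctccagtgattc
This stretch held 6 CpGs at 59.6% GC and none of the RUNX, ETS or amino acid response letters. Among the neighbours of WDFY4, MAPK8, a stress kinase gene, differed little (3804 and 2422 reads, log2 ratio 0.21), while VSTM4, a membrane protein with an immunoglobulin domain, had 5 reads in REH against 1378 in 697, a log2 ratio of -8.41 (-10.18 to -7.32).

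Since WDFY4 is best known from dendritic cells, markers of these and of myeloid cells were read beside it. CLEC9A and CLEC10A had 0 reads in both lines, and XCR1 and ITGAX had 1 read in REH and 0 in 697. CD1C had 1 read in REH and 8 in 697. BATF3, a transcription factor of cross-presenting dendritic cells, had 237 reads in REH and 441 in 697. The summed CPM of the 6 dendritic cell markers was 4.77 in REH and 12.2 in 697. Of the 6 myeloid markers 5 were tested, and 3 passed the threshold toward REH, against 12.5% of all tested genes. These were MPO (12643 and 12 reads, log2 ratio 9.54), CSF3R (920 and 32, 4.38) and ITGAM (403 and 0). The log2 ratio of ITGAM was 6.63 at the floor of 3 reads, with an exact interval from 6.32 upward. The summed CPM of the myeloid list was 279 in REH and 3.11 in 697. The other 3 of the 6 were low, with 29 and 8 reads of CD14, 30 and 61 of CSF1R, and 1 and 2 of LYZ. The part of myeloid transcripts in the WDFY4 value was not tested.

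WDFY1 and WDFY2 were expressed in both lines at similar levels. WDFY1 (ENSG00000085449; chromosome 2, 223855716 to 223945357, minus strand), known as an adaptor of Toll-like receptors 3 and 4, had 4768 reads in REH (94.9 CPM, interval 92.2 to 97.6) and 2991 in 697 (81.0 CPM, 78.1 to 83.9). The log2 ratio was 0.23 (0.16 to 0.30). WDFY2 (ENSG00000139668; chromosome 13, 51584455 to 51767709, plus strand), which binds AKT2 on endosomes, had 1489 reads in REH (29.6 CPM, 28.1 to 31.2) and 1492 in 697 (40.4 CPM, 38.4 to 42.5). Its log2 ratio was -0.45 (-0.55 to -0.34). Without TMM scaling every log2 ratio rises by 0.31, which takes WDFY1 to 0.54, WDFY2 to -0.14 and NIBAN2 to -0.54, so their signs held while their sizes depended on the scaling. Of the neighbours of WDFY1, MRPL44, a mitochondrial ribosome gene 12.1 kb upstream, had a log2 ratio of -0.46, and SCG2, a secretory granule protein 343 kb downstream, had 3 reads in REH and 178 in 697 (-6.12, interval -8.63 to -4.76).

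To compare levels between genes, CPM was divided by the summed exon length in kb. In REH the order of CPM per kb was NIBAN3 (71.0, interval 70.1 to 71.9), WDFY1 (17.3, 16.8 to 17.8), NIBAN1 (17.2, 16.8 to 17.6), WDFY3 (6.51, 6.34 to 6.68), WDFY4 (4.83, 4.67 to 5.0), NIBAN2 (3.14, 2.92 to 3.38) and WDFY2 (1.83, 1.74 to 1.92). WDFY1 and NIBAN1 did not differ beyond counting error, while the other neighbours in this order did. Among 13489 protein-coding genes tested, NIBAN3 ranked 302nd in REH by CPM per kb (97.8th percentile) and 3792nd in 697 (71.9th percentile). In 697 the order was WDFY1 (14.8, 14.2 to 15.3), NIBAN3 (11.9, 11.5 to 12.4), NIBAN2 (5.65, 5.30 to 6.02), WDFY2 (2.49, 2.37 to 2.62) and WDFY4 (0.0910, 0.0666 to 0.121), with NIBAN1 and WDFY3 at 0. When lengths of the reference transcript were used instead, NIBAN3 (22.4) exceeded WDFY1 (17.6) in 697.

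The same values give the make-up of both families in each line. Because the members were chosen with the 0 reads of NIBAN1 and WDFY3 in 697 known, their missing shares there are no separate result. NIBAN3 accounted for 77.7% of the summed NIBAN CPM per kb in REH and 67.9% in 697. The second NIBAN gene was NIBAN1 in REH (18.8%) and NIBAN2 in 697 (32.1%). These shares depend on the length used. By the length of the reference transcript, NIBAN2 stood at 6.62 and NIBAN3 at 22.4 in 697, which makes the NIBAN2 share smaller. WDFY1 accounted for 56.8% of the WDFY sum in REH and 85.1% in 697. The large BEACH members WDFY3 and WDFY4 made up 21.4% and 15.9% in REH, and 0% and 0.525% in 697.

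**Figure D4:**
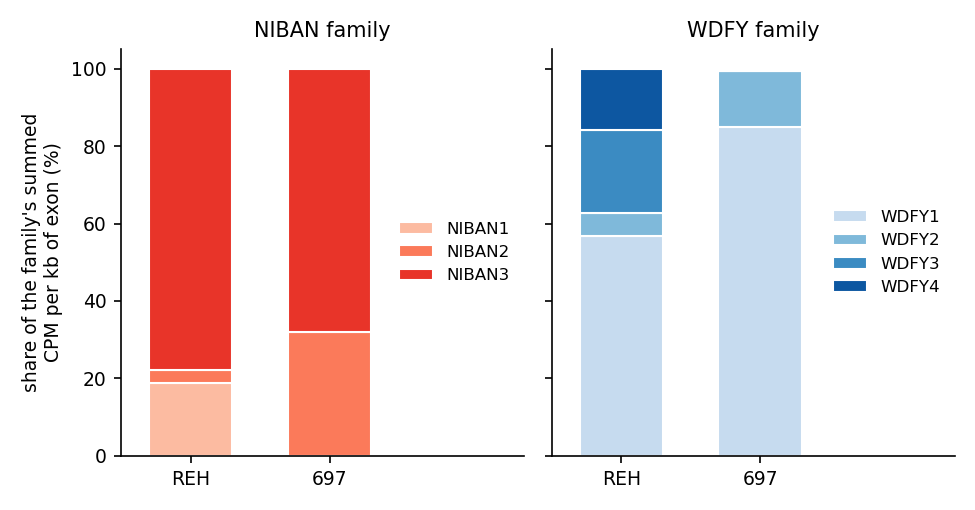
Share of each gene in its family's summed CPM per kb of exon (%), for the NIBAN genes on the left and the WDFY genes on the right, with 1 bar per line. The NIBAN1 part (18.8%) and the WDFY3 and WDFY4 parts (21.4% and 15.9%) of the REH bars are missing or below 1% in the 697 bars.

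The coding sequences of the reference transcripts in GENCODE 44 show how far the members resemble each other. NIBAN1, NIBAN2 and NIBAN3 encode 928, 746 and 620 residues, with 37.4% identity between NIBAN1 and NIBAN2 over 736 aligned positions and 28.9% between NIBAN1 and NIBAN3. WDFY1 and WDFY2, of 410 and 400 residues, were 61.8% identical. WDFY3 (3526 residues) and WDFY4 (3184) were 37.9% identical over 3112 positions. The letters RHHCR, part of the zinc-binding motif of FYVE domains, were found in WDFY3, and the shorter HHCR also in WDFY1 and WDFY2 but not in WDFY4. WDFY3 and WDFY4, the longer pair, had the log2 ratios of the family past the threshold, and the shorter pair did not.

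Next, genes that act with these families were read, beginning with the other BEACH proteins. The counts of each list stand beside the 12.5% of all tested genes past the threshold toward REH and the 8.15% toward 697, and nothing particular to a list is read from them. Of 9 BEACH genes tested, WDFY3 and WDFY4 were past the threshold and the other 7 were not, with log2 ratios between -0.84 and 0.55. LRBA, which is needed for the recycling of CTLA4, had 6044 and 4293 reads (log2 ratio 0.05, interval -0.01 to 0.11). NBEAL2, a gene of platelet granules, had 5774 and 4698 reads (-0.15), and LYST, the gene of Chediak-Higashi syndrome, had 613 and 354 (0.35). Of the 28 FYVE domain genes tested, WDFY3 was higher in REH and 3 were higher in 697, with a median log2 ratio of 0.08. These were PLEKHF2, an endosomal protein (807 and 3895 reads, log2 ratio -2.71), its relative PLEKHF1 (1 and 74, -6.08, interval -11.98 to -4.13) and FGD5. FGD5, an exchange factor of endothelial cells, had 0 and 40 reads. Its log2 ratio was -4.18 at the floor of 3 reads, and its exact interval reached -3.82. EEA1, HGS and PIKFYVE, which mark or act on early endosomes, stayed under the threshold.

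Among 27 tested genes of selective autophagy, in which WDFY3 acts, 1 was higher in REH and 1 in 697, and the median log2 ratio was 0.40. GABARAPL1, an ATG8 protein, had 234 reads in REH against 0 in 697, a log2 ratio of at least 5.84. BAG3, a chaperone cofactor of aggregate clearance, had 42 and 879 (-4.82, interval -5.31 to -4.38). SQSTM1, the aggregate receptor p62, had 2303 and 1743 reads (-0.04, interval -0.13 to 0.05). PIK3C3, the lipid kinase that makes the ligand of FYVE domains, lay just under the threshold (14376 and 2674 reads, 1.98). ATG5, a partner of WDFY3, was at 1.20.

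For the integrated stress response, in which NIBAN1 is induced, a list of 22 genes was read. The list also held genes of other branches of endoplasmic reticulum stress, namely ERN1, XBP1, ATF6 and HSPA5. Of the 22 genes, 2 were higher in REH and 0 in 697, against 12.5% and 8.15% of all tested genes. Their median log2 ratio was -0.16. TRIB3, a pseudokinase induced by ATF4, had 21994 and 870 reads (log2 ratio 4.22, interval 4.12 to 4.32), and ERN1, the endoplasmic reticulum stress sensor IRE1, had 4608 and 666 (2.35). ATF4 itself had 25121 and 22250 reads (-0.27), and DDIT3, the transcription factor CHOP, had 3202 and 1404 (0.75). Other genes of the list lay lower in REH but under the threshold, among them ASNS (3876 and 6563 reads, -1.20) and EIF4EBP1 (3360 and 5410, -1.13). Of 14 genes around AKT, the atypical kinase gene PRKCZ was higher in 697 (26 and 801 reads, -5.36) and none was higher in REH, while AKT2, the partner of WDFY2, was at -0.09.

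Of 13 tested genes of TLR3 and TLR4 signalling, TLR4 was higher in REH (241 and 1 reads, log2 ratio 6.89, interval 4.98 to 12.78) and none was higher in 697. TLR3 had 100 and 136 reads, and TICAM1, the adaptor TRIF that WDFY1 recruits, had 729 and 610 (-0.19). Of the 10 tested genes of cross-presentation, WDFY4 and CYBB, the phagocyte oxidase subunit (1349 and 14 reads, 6.10), were higher in REH. IRF8, a transcription factor of dendritic and B cells, was higher in 697 (320 and 953 reads, -2.02), and came under the threshold without TMM scaling.

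**Figure D5:**
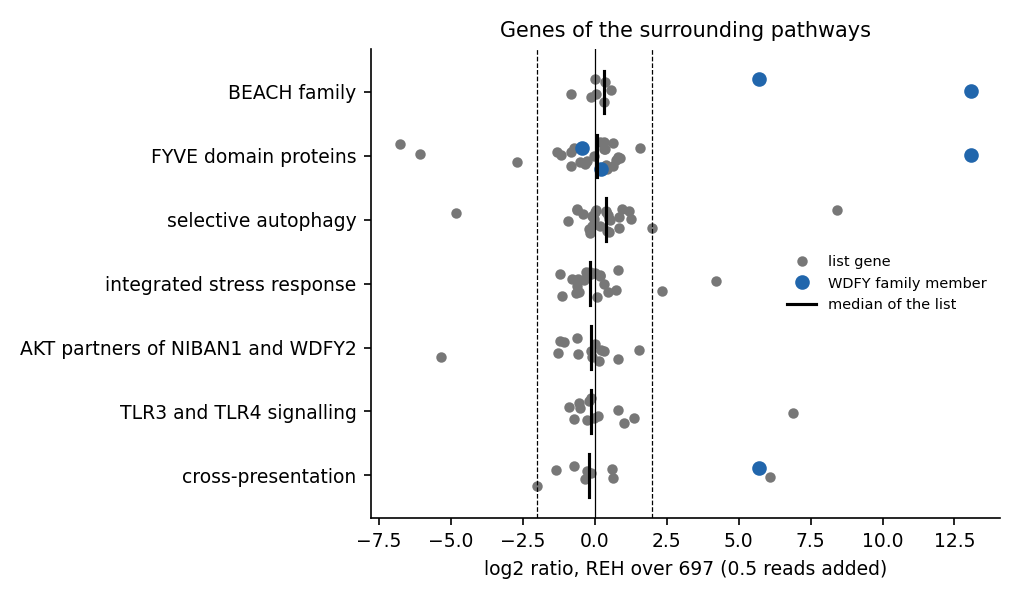
Log2 ratios of REH over 697 (0.5 reads added) of the tested genes in 7 lists of related genes, with WDFY members in blue, other genes in grey, the list median as a black bar and dashed lines at a log2 ratio of 2 in size. List medians lay between -0.21 and 0.40. WDFY3 stood at 13.08, WDFY4 at 5.72, WDFY1 at 0.23 and WDFY2 at -0.45, and the other genes lay between -6.78 and 8.43. For genes with 0 reads in a line the plotted size depends on the added reads.

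Finally, the protein-coding genes with the levels most like those of each member were listed, by the distance of log2(CPM + 0.05) over the 2 libraries. NIBAN1 and WDFY3 were nearest to each other (distance 0.287), and next came PID1, an adaptor of lipoprotein receptors (4700 reads in REH and 0 in 697). As NIBAN1 and WDFY3 both had 0 reads in 697, their distance reflects the REH levels alone. Their nearness follows from the ratios on which the members were chosen and is no separate result. NIBAN3 was nearest to the phosphatase gene PTPRE (22309 and 3371 reads, log2 ratio 2.28) and to ATP2A3, a calcium pump (2.11). WDFY4 was nearest to ABHD10 (3471 and 47 reads) and UNC79 (3655 and 51). For NIBAN2 these were CCDC167 and PDSS1, for WDFY1 PPM1B and TOP3A, and for WDFY2 RPA3 and LRRCC1, each within 0.051 of the member. With 2 libraries such likeness describes a pair of levels and no more.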

How the data were processed

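Total RNA of the cell lines REH and 697 gave 1 sequencing library each, grouped by the cell line in the sample labels. The authors deposited raw counts per gene for reads on either strand, on the strand of the gene and on the opposite strand. According to the methods of the study, reads were aligned with STAR to hg38, whereas the submitters' processing notes name hg19. The annotation release is not given in the sources used here. The labels describe ribodepleted stranded libraries and the methods poly(A) purification, and both libraries divided evenly over the strands (50.1% and 50.2% on the strand of the gene). Reads that mapped to several places were not counted (10.8% of all reads in REH and 15.4% in 697).

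The count of either strand was used. Symbols, exon lengths and positions come from GENCODE 44 (51996 of 57773 gene IDs matched without version) and are not coordinates of the authors. Genes reaching 10 reads in REH or 697 were compared. Totals were scaled with TMM (edgeR 4.0.16, R 4.3.3; factors 1.11 for REH and 0.899 for 697), and 0.5 reads were added before each log2 ratio. Ratio intervals are exact 95% Clopper-Pearson intervals of the share of reads from REH, and level intervals are exact Poisson intervals. Reads are not independent molecules, so intervals and the floor of 3 reads cover counting error only. The study used DESeq2, but with 1 library per line no p-value was computed, and each ratio compares these libraries rather than the lines in general.

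Members and gene lists were chosen with earlier results of these data known. The rule for genes named beside the members took those overlapping a member, those of the 3 nearest coding genes on each side that passed the threshold, the 2 coding genes with the nearest levels, and from each list the 2 largest ratios past the threshold in each direction where 100 reads were reached. All other genes named, markers apart, were chosen after their values were seen, as were the stretch around WDFY3 and the letters HHCR. SEC22B, CD24 and IKBKE of the lists had no matching ID. The computation was tested on simulated data. Alternatives were DESeq2 1.42.0 size factors, other scalings, minimum reads, added reads, threshold, strand columns and lengths. Python 3.11.15 with scipy 1.17.1, Biopython 1.88 and matplotlib 3.10.9 was used. Promoter sequences come from RefSeq (GRCh38.p14), and were used for NIBAN1, NIBAN2, NIBAN3, WDFY1 and WDFY4. Promoters of WDFY2 and WDFY3 were not analysed here.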

Additional observations from a re-analysis of the deposited data

Results flagged for a closer look

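WDFY3-AS1, an lncRNA gene on the opposite strand of WDFY3, had 0 reads in the column of either strand in both lines. In REH the separate strand columns held 114 reads on the strand of WDFY3-AS1 and 94 reads on the other strand, above the limit of 3 reads, and in 697 both held 0. It is listed because the comparisons did not use these columns. Of the 644 exon bases of WDFY3-AS1, 553 are shared with WDFY3 exons, and the origin of these reads from either gene was not tested.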

How the results depend on the processing

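No paired analysis was possible because REH and 697 were sequenced once each, and for the same reason no replicate could be left out. Of 49 member ratios recomputed over 7 alternatives, 49 kept their sign and 42 stayed within the counting interval, including all 7 with each of DESeq2 size factors, TMM factors from protein-coding genes, TMM without mitochondrial genes and gene-strand reads. In each alternative, minimum reads and threshold included, 4 members were higher in REH and 0 in 697. Without scaling, log2 ratios were -0.54 for NIBAN2, 2.88 for NIBAN3, 0.54 for WDFY1 and -0.14 for WDFY2. With 5 reads added, they were 10.05 for NIBAN1 and 9.76 for WDFY3, since the added reads set the size where 697 has 0. With reads on the opposite strand, NIBAN3 was at 2.64.

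Over all genes, 2396 were higher in REH and 1560 in 697. With a minimum of 1 read, 3592 were higher in REH and 4411 in 697. These counts cannot be compared between the directions, because of the 0.5 reads added and the scaling. A gene with 1 read in 697 and 0 in REH passes the threshold. A gene with 1 read in REH and 0 in 697 does not. With a minimum of 50 reads, 1464 were higher in REH and 1048 in 697. At a log2 ratio of 1, 4293 were higher in REH and 3336 in 697. Without scaling, 2 autophagy genes were higher in REH, PIK3C3 being added, and 0 cross-presentation genes were higher in 697.

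Levels per kb by the length of the reference transcript were 20.8 for NIBAN1, 3.68 for NIBAN2, 133 for NIBAN3, 20.6 for WDFY1, 3.16 for WDFY2, 8.05 for WDFY3 and 6.56 for WDFY4 in REH, and 6.62 for NIBAN2, 22.4 for NIBAN3, 17.6 for WDFY1, 4.31 for WDFY2 and 0.123 for WDFY4 in 697. Without scaling they were 19.1, 3.49, 78.9, 19.2, 2.03, 7.24 and 5.38 for the same 7 genes in REH, and 5.08, 10.7, 13.3 and 2.24 for NIBAN2, NIBAN3, WDFY1 and WDFY2 in 697. The depth limits WDFY4 in 697, whose 46 reads give its fold a counting interval of 39.7 to 72.7. This interval holds for TMM scaling and covers no replicate error. Without scaling the log2 ratio of WDFY4 was 6.02, against 5.72 with TMM.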

Other observations

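Of the 42 coding genes nearest to the members, 33 were tested. Toward REH 6 of them passed the threshold, and 5 did so toward 697, against 12.5% and 8.15% of all tested genes. Of the 6, 4 belong to the surroundings of WDFY3 (CDS1, ARHGAP24, MAPK10 and PTPN13), and the others are C1orf21 beside NIBAN1 and UNC13A beside NIBAN3. The 5 higher in 697 lie near WDFY1 (SCG2 and AP1S3, an adaptor protein subunit with 46 reads in REH and 151 in 697), near WDFY2 (FAM124A, 31 and 147 reads, log2 ratio -2.67, and DHRS12, 38 and 123 reads, -2.13) and near WDFY4 (VSTM4). AP1S3 (log2 ratio -2.15) and DHRS12 come under the threshold without TMM scaling, which raises each log2 ratio by 0.31. INTS6, a subunit of the Integrator complex whose start lies 130 kb upstream of WDFY2, had 1972 and 1988 reads and a log2 ratio of -0.46, close to the -0.45 of WDFY2.

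The counts of the marker lists stand beside the 12.5% of all tested genes past the threshold toward REH and the 8.15% toward 697. Of 4 markers of mature B cells tested, 2 were higher in REH. MS4A1, which encodes CD20 of more mature B cells, had 670 reads in REH against 19 in 697, a log2 ratio of 4.66. FCER2 had 110 and 5 reads, CD27 had 36 and 25 (log2 ratio 0.07), and IGHM had 29748 and 51738. Of 5 T cell markers, CD3E was higher in REH (45 reads against 0). Its log2 ratio was 3.46 at the floor of 3 reads, with an exact interval from 3.10 upward. CD8A was higher in 697 (0 reads in REH against 10, -2.18 at the floor), but its exact interval reached -1.61, under the threshold. CD3D and CD4 had 0 reads in both lines, and CD3G had 2 and 1. Of 4 NK cell markers, NKG7 was higher in 697 (123 and 542 reads, -2.58), and the others had at most 6 reads. ALAS2, an erythroid marker, had 21 and 13 reads, and HBB had none. COL1A1, a collagen gene of fibroblasts, had 477 and 387 reads, while COL1A2 and KRT8 had none.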
